A study of Homo sapiens with 8 samples.

Results

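The 5 red cell membrane genes described here, GYPB, GYPC, EPB41, ANK1 and SPTB, are 5 of the 20720 genes with at least 1 uniquely mapped junction read in K562 cells. They were chosen by name and not by a rule on their values, but with earlier results of these data known. Every exon-exon junction whose intron or splice sites the GENCODE 29 annotation gives to 1 of them was taken, which came to 497 of the 860791 junctions seen in 8 libraries. GYPB had 51 of these junctions, GYPC 50, EPB41 162, ANK1 155 and SPTB 79.

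K562 is an established human erythroleukaemia line. Total RNA was sequenced as strand-specific libraries from 4 groups of 2 libraries each: SF3B1 K700E at day 8, SF3B1 wild type (WT) at day 8, K700E at day 4 and WT at day 4. SF3B1 is the splicing factor subunit that contacts the branch point, and K700E is its recurrent hotspot change. The treatment given for every group, WT included, is doxycycline at 1 ug/ml to induce the modified allele. No label states a clone, or says that the 2 libraries of a group came from separate cultures, so p-values measure the spread between these libraries, which may be technical. The series lists differential expression and splicing between WT and K700E as its purpose.

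The red cell membrane is held up by a lattice of spectrin tetramers on its inner face. SPTB codes for beta-spectrin, the chain that binds ankyrin, and ANK1 codes for ankyrin-1, which ties spectrin to the band 3 anion exchanger. EPB41 codes for protein 4.1R, which strengthens the contact of spectrin with actin and binds glycophorin C, the product of GYPC. GYPB codes for glycophorin B, a sialoglycoprotein that carries the S and s blood group antigens. Loss of beta-spectrin or ankyrin-1 is known from hereditary spherocytosis and loss of protein 4.1R from hereditary elliptocytosis.

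Each library held 49338071 to 77750812 uniquely mapped junction reads. The labels call the cells epithelial. Of the epithelial markers, CDH1 and CLDN4 stayed at or below 0.0414 and 0.0420 junction reads in counts-per-million (CPM) in every library, while KRT18 was at 216 to 1192 CPM, KRT8 at 164 to 1029 CPM, KRT19 at 32.9 to 361.5 CPM and EPCAM at 6.90 to 111.5 CPM. The erythroid factor GATA1 was between 122 and 213 CPM. Reads at cryptic acceptors of 9 known SF3B1 targets were counted as a check of the labels. Their median share was 54.8% and 51.1% in the K700E day 4 libraries, against 1.70% and 3.47% in the WT day 4 libraries. At day 8 the values did not follow the labels: the median share was 5.88% and 52.9% in the libraries labelled K700E, against 2.01% and 49.7% in those labelled WT. All genotype comparisons at day 8 below are therefore between libraries labelled K700E and libraries labelled WT. The WT day 8 libraries also listed the fewest junctions, 211347 and 278644, against 375683 to 470900 in the other 6. The alignment logs place the 8 runs in 3 output folders, 1 for all day 4 libraries, 1 for WT day 8 and 1 for K700E day 8. Day and output folder, and at day 8 also genotype and output folder, cannot be told apart.

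GYPB (ENSG00000250361.8) lies at chr4:143996104-144019345 on the minus strand, GYPC (ENSG00000136732.15) at chr2:126655933-126696670 on the plus strand, EPB41 (ENSG00000159023.21) at chr1:28887091-29120046 on the plus strand, ANK1 (ENSG00000029534.20) at chr8:41653220-41896762 on the minus strand and SPTB (ENSG00000070182.20) at chr14:64746283-64879907 on the minus strand of hg38.

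Levels are given as CPM, the unique junction reads of a gene as counts-per-million after TMM scaling. At day 8, relative to day 4 and over the mean of both genotypes, GYPB, SPTB and EPB41 fell, GYPC rose, and ANK1 did not pass the test. Adjusted p-values are from edgeR's quasi-likelihood test with Benjamini-Hochberg adjustment over all 14902 genes fitted. Of the 5 genes, 3 were called lower and 1 higher at an adjusted p under 0.05. Of all genes tested, 18.0% were called lower and 18.1% higher, so a call between the days was common in the whole table. Within the K700E libraries alone SPTB and EPB41 were not called, and within the WT libraries alone GYPC was not. The comparison of days was added after the values were seen.

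**Figure D1:**
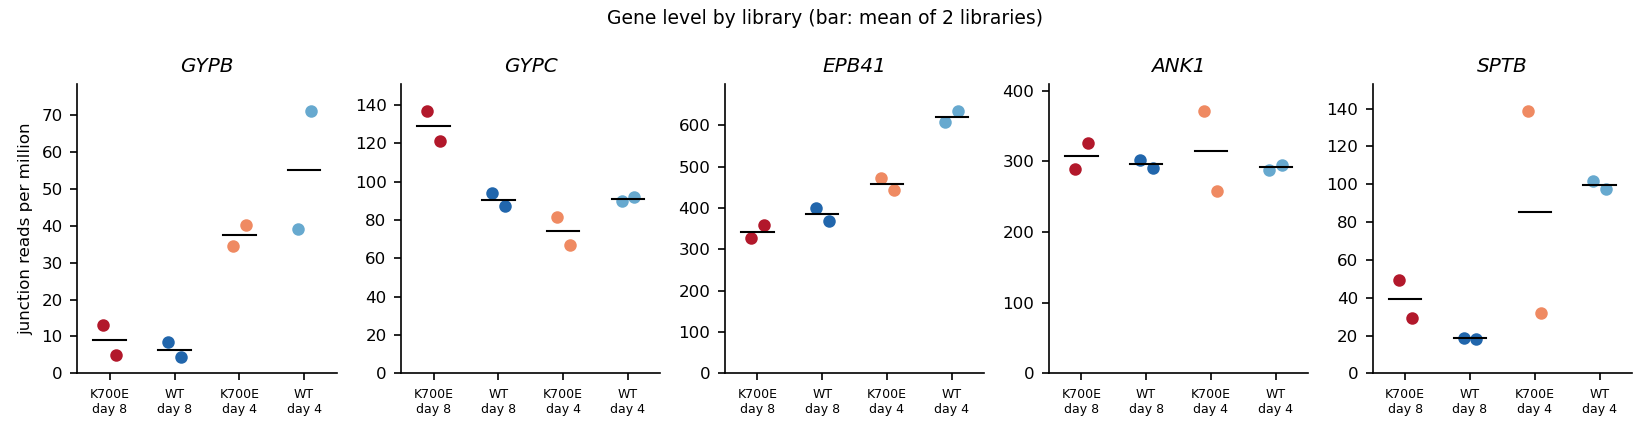
Gene level in CPM (y axis) of the 5 genes in each of the 8 libraries, by genotype and day (x axis); each point is 1 library and each bar the mean of 2. GYPB and EPB41 have all 4 day 8 libraries below all 4 day 4 libraries, and the 2 K700E day 4 libraries of SPTB stand far apart.

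SPTB is the beta-spectrin of the red cell. Its level was 49.2 and 29.4 CPM in the K700E day 8 libraries and 18.8 and 18.3 CPM in the WT day 8 libraries. In the day 4 libraries it was 139 and 31.7 CPM in K700E and 102 and 97.3 CPM in WT. The day 8 libraries were lower than 3 of the 4 day 4 libraries, and the ranges overlapped because the second K700E day 4 library was as low as the K700E day 8 libraries. The log2 change at day 8 over day 4 was -1.77 (SE 0.43, adjusted p = 0.0167 by edgeR), a fold of 0.293. Within the WT libraries it was -2.42 (SE 0.62, adjusted p = 0.0339), and within the K700E libraries -1.12 (SE 0.59, adjusted p = 0.231). The call was lost without the first WT day 4 library (-1.73, adjusted p = 0.0512), without the second (-1.77, adjusted p = 0.0535) and without the second K700E day 8 library (-1.62, adjusted p = 0.0551). Without the first K700E day 4 library the change was -1.07.

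The fall of SPTB ran along the whole transcript. All 35 introns of the reference transcript SPTB-208 had a lower mean CPM at day 8, with a median log2 ratio of -1.59, and in 4 of them every day 8 library was below every day 4 library. Coverage was uneven in the first WT day 8 library: 7 of the 35 introns had 0 reads and the most covered had 120. In ANK1, the gene of comparable intron number, 20 of 41 introns had a lower mean at day 8 and the median log2 ratio was 0.02.

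**Figure D2:**
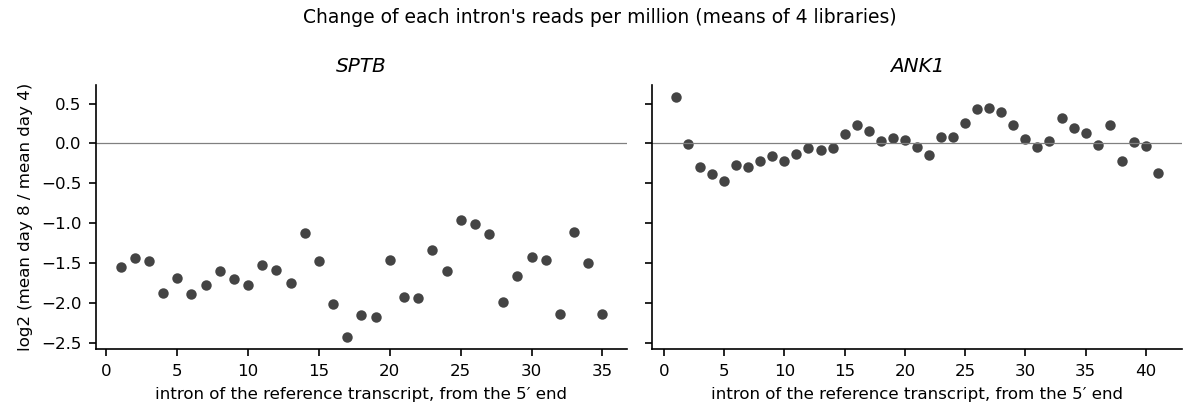
Log2 ratio of the mean CPM at day 8 over day 4 (y axis, 4 libraries each) for every intron of the reference transcripts of SPTB and ANK1, numbered from the 5′ end (x axis). All 35 SPTB introns lie below 0, and the 41 ANK1 introns scatter around 0.

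Between genotypes the SPTB values at day 4 rested on 1 library. K700E over WT came to -0.21 on the log2 scale (SE 0.62, adjusted p = 0.881 by edgeR). Without the first K700E day 4 library it was -1.64, and without the second it was 0.48. Each of these sets 1 K700E library against 2 WT libraries, so that the spread comes from WT alone, and no p is given for them. At day 8 both libraries labelled K700E were higher than both labelled WT, with a log2 change of 1.05 (SE 0.32, adjusted p = 1.00). SPTB and GYPC were in this order at day 8, as were 19.0% of all genes tested.

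SPTB has an upstream first exon that is joined across a long first intron. That junction took 20 and 13 reads in the K700E day 8 libraries, 0 and 5 in WT day 8, 36 and 12 in K700E day 4 and 28 and 53 in WT day 4. As a share of it and the next intron together, this was 20% and 17.8%, then 0% and 12.8%, then 11.3% and 17.4%, then 15.5% and 22.8%, in the same order of groups. The first WT day 8 library had 0 of 52 reads, with a 95% Wilson interval that reaches 6.88%. In that library 14 reads joined the upstream first exon directly past the 199 nt exon that follows it, against 0 to 5 in the other 7. Intron 32 of the 35, which leads to the long carboxy-terminal tail known from muscle and brain, had 10 and 0 reads in K700E day 8, 0 and 0 in WT day 8, 10 and 2 in K700E day 4 and 9 and 36 in WT day 4. It was thinly read in every library, and the second WT day 4 library had the most.

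ANK1 had the smallest difference of the 5 between the days. It had 289 and 325 CPM in K700E day 8, 302 and 291 CPM in WT day 8, 372 and 259 CPM in K700E day 4 and 288 and 295 CPM in WT day 4. The day 8 libraries lay inside the range of the K700E day 4 libraries. The log2 change at day 8 over day 4 was -0.01 (SE 0.14, adjusted p = 0.981 by edgeR), and K700E over WT gave 0.13 (SE 0.19, adjusted p = 0.746) at day 4 and 0.01 (SE 0.20, adjusted p = 1.00) at day 8. Its spread among the 4 day 4 libraries was 303 ± 48.2 CPM, and among the 4 day 8 libraries 302 ± 16.6 CPM (SD, n = 4 each).

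ANK1 is annotated with first exons far apart. The junction from the nearer one had 142 to 348 reads a library, 2036 in all, and junctions lying wholly upstream of it had 0. Reads that join a farther first exon straight to the next shared exon were not counted. The use of those first exons was therefore not tested. Near the 3′ end the last exons were variable. A 141 nt exon shares its upstream junction with a 66 nt form of it. The other junction had 150 to 443 reads a library for the 141 nt form and 47 to 132 for the 66 nt form. Reads of the 66 nt form at the shared junction thus count as inclusion, and the values do not measure the 141 nt form alone. Inclusion so counted was 89.5% and 91.6% in K700E day 8, 93.7% and 91.6% in WT day 8, 97.6% and 97.6% in K700E day 4 and 97.4% and 94.4% in WT day 4. All 4 day 8 libraries were below all 4 day 4 libraries, as for 8.36% of all cassette exons tested. The difference was -5.18 points (unadjusted p = 0.0175, adjusted p = 0.194 by edgeR), and this exon was chosen after its values were seen.

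A 135 nt exon close by was set against the junction of the 66 nt form alone. The junction of the 141 nt form, with 150 to 443 reads a library, also passes over it and was not counted. Its share is thus not one of all ANK1 reads there. So counted, it was included in 7.84% and 5.33% of reads in K700E day 8, 0% and 14.3% in WT day 8, 10.2% and 8.82% in K700E day 4 and 11.6% and 11.7% in WT day 4. The 2 WT day 8 libraries lay at both ends of the range, and the intervals reach 8.20 points on either side. A 397 nt exon gave 47.9% and 46.7% in K700E day 8, 27.7% and 38.4% in WT day 8, 38.0% and 39.5% in K700E day 4 and 38.4% and 55.6% in WT day 4. These values do not measure use of that exon. The junction with 144 to 274 reads is shared with a 559 nt exon, and the 397 nt exon's own junction had 0 to 7.

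EPB41, the gene of protein 4.1R, had 328 and 358 CPM in K700E day 8, 401 and 370 CPM in WT day 8, 472 and 445 CPM in K700E day 4 and 607 and 635 CPM in WT day 4. All 4 day 8 libraries were below all 4 day 4 libraries. This held for 2 of the 5 genes, EPB41 and GYPB, and for 17.7% of all genes tested. The log2 change at day 8 over day 4 was -0.55 (SE 0.10, adjusted p = 0.00606 by edgeR). Within WT it was -0.69 (SE 0.14, adjusted p = 0.0195) and within K700E -0.42 (SE 0.14, adjusted p = 0.0858).

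At day 4 EPB41 was also lower in both K700E libraries than in both WT libraries. The log2 change of K700E over WT was -0.42 (SE 0.11), with an unadjusted p of 0.0109 and an adjusted p of 0.136 by edgeR over 13991 genes. DESeq2's Wald test, the other tool run, called it at an adjusted p of 0.0274, as 1 of 1640 genes against 74 called by edgeR. Over the alternatives tried, the change ran from -0.47 to -0.39 and the adjusted p from 0.0274 to 0.516. K700E and WT did not overlap, with K700E lower, for EPB41 and GYPC, 2 of the 5 genes, against 28.2% of all genes tested.

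EPB41 is known for its alternative exons. Exon 16 codes for part of the domain that binds spectrin and actin and is known to be included late in erythroid maturation. Exons 14 and 15 lie just before it. These 3 exons between exons 13 and 17 are shown because the next results turn on them, from the GENCODE 29 transcripts on GRCh38. The exon is in capitals and 15 bases of the exons joined on either side in that transcript are in lower case, in the order 14 (chr1:29058589-29058645, plus strand), 15 (chr1:29058811-29058852) and 16 (chr1:29060422-29060484).
EPB41 exon 14: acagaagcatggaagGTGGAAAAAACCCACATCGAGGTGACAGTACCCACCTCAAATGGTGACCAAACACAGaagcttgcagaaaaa
EPB41 exon 15: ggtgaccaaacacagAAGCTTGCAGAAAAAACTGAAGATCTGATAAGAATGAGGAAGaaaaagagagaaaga
EPB41 exon 16: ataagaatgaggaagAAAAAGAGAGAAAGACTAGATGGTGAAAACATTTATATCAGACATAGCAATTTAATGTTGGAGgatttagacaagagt

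All 3 exons are a whole number of codons long, at 57, 42 and 63 nt, so that leaving them out keeps the reading frame. Inclusion is the mean of the reads of an exon's 2 junctions as a share of that mean plus the reads that skip it. Exon 16 was skipped in most EPB41 transcripts. It was included in 22.2% and 20.4% of reads in K700E day 8, 23.3% and 29.1% in WT day 8, 19.8% and 19.4% in K700E day 4 and 15.6% and 15.7% in WT day 4. Each value has a 95% Wilson interval of at most 2.999 points on either side, for counting error only.

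All 4 day 8 libraries had more exon 16 than all 4 day 4 libraries, a difference of 6.12 points (adjusted p = 0.505 by edgeR's test of inclusion against skipping reads). Of 25717 cassette exons tested over 8 libraries, 4.44% had day 8 above day 4 without overlap, and 8.36% had it below. At day 4 both K700E libraries had more exon 16 than both WT libraries, by 3.97 points (adjusted p = 0.758). At day 8 both libraries labelled K700E had less than both labelled WT, a difference of -4.92 points (adjusted p = 1.00). The opposite order at the 2 days was not tested. How many of all cassette exons separate the genotypes without overlap was not counted.

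Exon 14, set against the direct join of exons 13 and 17, was included in 9.78% and 13.9% of reads in K700E day 8, 13.1% and 2.48% in WT day 8, 7.22% and 3.49% in K700E day 4 and 8.77% and 8.93% in WT day 4. The second WT day 8 and the second K700E day 4 library were the lowest, and the days overlapped. Exon 15, set against the join of exons 14 and 16, ran from 14.6% to 45.1%, and its intervals of up to 21.04 points on either side are too wide to order the libraries.

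**Figure D3:**
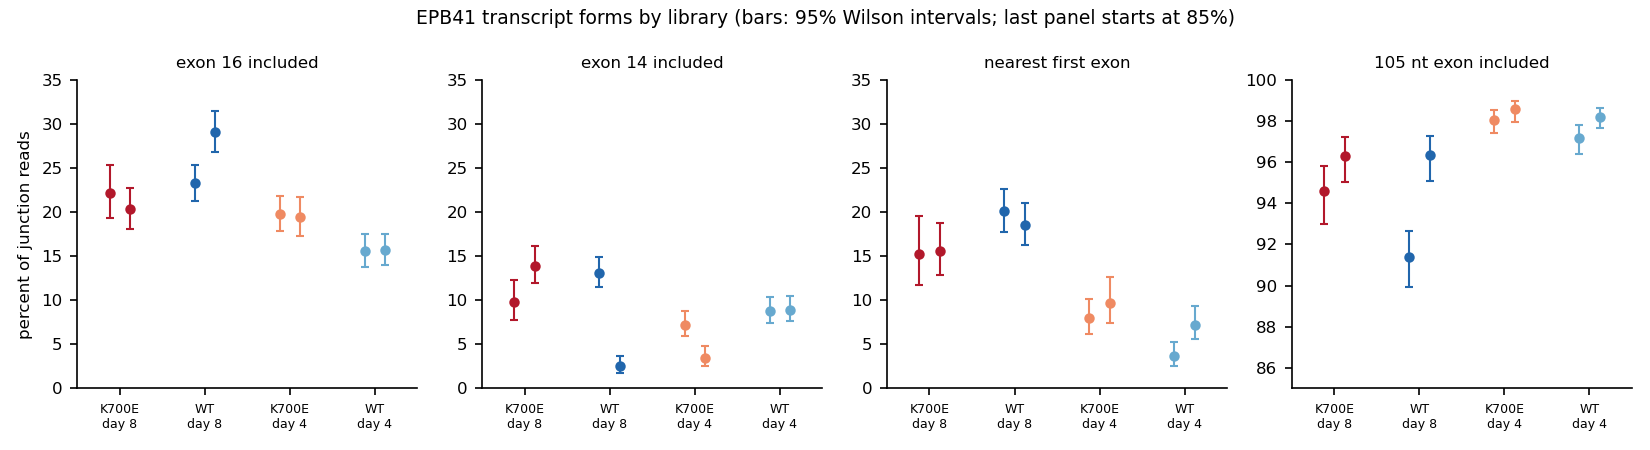
Percent of EPB41 junction reads (y axis) that include exon 16, include exon 14, start at the nearest of 3 first exons, or include the 105 nt exon, in each library by genotype and day (x axis); bars are 95% Wilson intervals. The day 8 libraries lie above the day 4 libraries for exon 16 and for the nearest first exon, and below them for the 105 nt exon, whose axis starts at 85%.

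A 105 nt exon near the 5′ end of the coding region (chr1:28997215-28997319) was included nearly always. Its inclusion was 94.6% and 96.3% in K700E day 8, 91.4% and 96.3% in WT day 8, 98.0% and 98.6% in K700E day 4 and 97.2% and 98.2% in WT day 4. All day 8 libraries were below all day 4 libraries, as for 8.36% of all cassette exons tested. The difference was -3.35 points (unadjusted p = 0.0220, adjusted p = 0.205 by edgeR). The 105 nt exon was chosen after its values were seen. A 129 nt exon after exon 17 was left out by a junction that the annotation lacks, in 2.56% to 8.05% of reads, with 54 to 150 reads a library. This exon too was chosen after its values were seen.

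The start of EPB41 is known to couple first exon and acceptor. Transcripts from the farthest first exon are known to join the second acceptor of exon 2 and so lose the first start codon of the long protein form, and those from the nearer first exons join the first acceptor and keep it. The 17 bases between the acceptors, with that start codon in capitals, are those at chr1:28987431-28987447 (GRCh38, plus strand).
EPB41 exon 2 between the acceptors: caacatcATGacaacag

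In these libraries the coupling was nearly complete. Of 4800 reads from the farthest first exon, 4740 joined the second acceptor, 96.0% to 100% by library. Of 727 reads from the nearest first exon and 146 from the middle one, 0 joined it. The nearest first exon took 15.2% and 15.6% of first-exon reads in K700E day 8, 20.1% and 18.55% in WT day 8, 7.96% and 9.72% in K700E day 4 and 3.63% and 7.24% in WT day 4. All 4 day 8 libraries were above all 4 day 4 libraries, with intervals of at most 3.89 points on either side. Those intervals cover counting error only, and the share of all such choices in that order was not counted. Among the junctions into the first acceptor, the share from the nearest first exon was 24.2 points higher at day 8 (adjusted p = 0.802 by edgeR's diffSpliceDGE), and the rare junction from the farthest first exon differed by -12.9 points (adjusted p = 0.0641). The second acceptor took 81.6% and 80.4% of exon 2 reads in K700E day 8, 77.8% and 78.6% in WT day 8, 87.5% and 87.9% in K700E day 4 and 89.9% and 88.6% in WT day 4. Exon 13 begins at either of a pair of acceptors 3 nt apart, and the second took 12.4% to 17.5% of reads at day 8 and 17.4% to 20.4% at day 4.

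GYPC codes for glycophorin C and, from a second start, glycophorin D, which carry the Gerbich antigens. Its level was 137 and 121 CPM in K700E day 8, 93.9 and 87.1 CPM in WT day 8, 81.3 and 67.2 CPM in K700E day 4 and 89.8 and 91.9 CPM in WT day 4. The 2 K700E day 8 libraries stood above the other 6. The log2 change at day 8 over day 4 was 0.40 (SE 0.12, adjusted p = 0.0329 by edgeR), made up of 0.80 (SE 0.16, adjusted p = 0.0182) within K700E and -0.01 (SE 0.16, adjusted p = 0.983) within WT. The difference between these, the interaction of genotype and day, was 0.81 (SE 0.23), with an unadjusted p of 0.00942 and an adjusted p of 0.472. The call for the mean of both genotypes was lost with no filter on low counts (0.38, adjusted p = 0.0665) and without any 1 of 7 of the 8 libraries (0.32 to 0.45, adjusted p from 0.0531 to 0.132). It was kept without the second WT day 8 library (0.42, adjusted p = 0.0384).

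K700E over WT for GYPC was -0.28 (SE 0.14, adjusted p = 0.330 by edgeR) at day 4, where both K700E libraries were lower, and 0.48 (SE 0.20, adjusted p = 1.00) at day 8, where both libraries labelled K700E were higher. GYPC exon 2 is the exon that is missing from the Yus form of the protein. It is shown with 15 bases of the neighbouring exons in lower case, because the next exon starts almost as exon 2 does: 14 of their first 15 bases are equal. It lies at chr2:126690255-126690311 (GRCh38, plus strand), and the sequence is that of its GENCODE 29 transcript.
GYPC exon 2: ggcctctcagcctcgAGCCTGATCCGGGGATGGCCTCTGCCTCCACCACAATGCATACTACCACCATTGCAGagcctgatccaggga

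Exon 2 of GYPC was included in 84.8% and 83.4% of reads in K700E day 8, 92.2% and 88.8% in WT day 8, 90.4% and 86.7% in K700E day 4 and 92.6% and 91.8% in WT day 4. Both K700E libraries were below both WT libraries at each day, a difference of -6.39 points at day 8 (adjusted p = 1.00 by edgeR) and of -3.65 points at day 4 (adjusted p = 0.636). The share of all cassette exons in such an order was not counted, and the day 8 labels did not follow the SF3B1 targets. The intervals are at most 1.97 points on either side. The exon is 57 nt, a whole number of codons.

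GYPB fell more than any other of the 5 genes. Its level was 13.03 and 4.87 CPM in K700E day 8, 8.47 and 4.44 CPM in WT day 8, 34.5 and 40.4 CPM in K700E day 4 and 39.2 and 71.3 CPM in WT day 4. The day 8 libraries all lay below the day 4 libraries. The log2 change was -2.58 (SE 0.39, adjusted p = 0.00291 by edgeR), a fold of 0.167. It was -2.07 (SE 0.54, adjusted p = 0.0379) within K700E and -3.10 (SE 0.56, adjusted p = 0.0129) within WT. All 4 introns of the reference transcript GYPB-202 had every day 8 library below every day 4 library.

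K700E over WT for GYPB was -0.54 (SE 0.30, adjusted p = 0.350 by edgeR) at day 4 and 0.43 (SE 0.63, adjusted p = 1.00) at day 8, and the libraries overlapped at both days. GYPB has near-identical copies, GYPE among them, so the split of reads between copies is uncertain. Multi-mapped reads made up 1.42% to 3.87% of GYPB junction reads, and with them counted the change at day 8 over day 4 was -2.59. For GYPE it was -1.86 (SE 0.39, adjusted p = 0.0100 by edgeR).

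A 99 nt exon of GYPB (chr4:144001185-144001283, GRCh38, minus strand) codes for part of the outer domain, the part of the protein that carries its sugars. It is printed from its GENCODE 29 transcript, in capitals with 15 bases of the neighbouring exons in lower case.
GYPB 99 nt exon: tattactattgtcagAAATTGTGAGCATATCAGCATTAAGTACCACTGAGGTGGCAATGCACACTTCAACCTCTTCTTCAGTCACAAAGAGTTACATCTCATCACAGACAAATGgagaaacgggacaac

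The 99 nt exon was included in 89.1% and 92.1% of reads in K700E day 8, 93.8% and 87.7% in WT day 8, 88.2% and 88.3% in K700E day 4 and 87.3% and 87.4% in WT day 4. The day 8 values scatter more widely than those of day 4, and have intervals of up to 8.58 points on either side. A 95 nt exon farther 3′, which is no whole number of codons, was included in 93.3% and 88.9% in K700E day 8, 89.6% and 80.5% in WT day 8, 92.1% and 93.9% in K700E day 4 and 93.2% and 95.1% in WT day 4. A 19 nt version of that exon had 0 to 10 reads of its own a library. A 124 nt extra exon was included in 2.20% and 10.2% in K700E day 8, 0% and 0% in WT day 8, 6.45% and 5.75% in K700E day 4 and 4.81% and 6.98% in WT day 4. A 93 nt extra exon was read only from its junction with the 99 nt exon. Its other junction was not counted, so these values are not inclusion. As a share of it and the direct join, that junction took 5.38% and 12.5% of reads in K700E day 8, 33.2% and 15.3% in WT day 8, 11.2% and 7.82% in K700E day 4 and 6.98% and 10.4% in WT day 4. The first WT day 8 library stood apart, with 70 of 211 reads.

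GYPB and SPTB each have the letters AGATAA, which GATA factors can bind, within a promoter window of 250 bases before to 50 after a RefSeq start. For SPTB this is the start of the upstream first exon, and the window of its other start does not hold the motif. The upstream junction of SPTB took 0% to 22.8% of the reads of it and the next intron. Both strands were searched for that motif. Of 35116 such windows 3628, or 10.3%, hold it on either strand, and of the 7 windows listed for GYPB, GYPC, EPB41 and SPTB 3 hold it, of which 2 are overlapping windows of GYPB. No window of ANK1 was searched, so the motif is not set against the changes of the genes. The stretches are shown 5′ to 3′ on the gene's strand with the motif in capitals, at chr4:144019359-144019404 and chr14:64879924-64879969 (GRCh38.p14, both minus strand). A match is a description of the letters and not of binding.
GYPB promoter: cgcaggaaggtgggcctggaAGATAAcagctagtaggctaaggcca
SPTB promoter: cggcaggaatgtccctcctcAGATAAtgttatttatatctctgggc

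**Figure D4:**
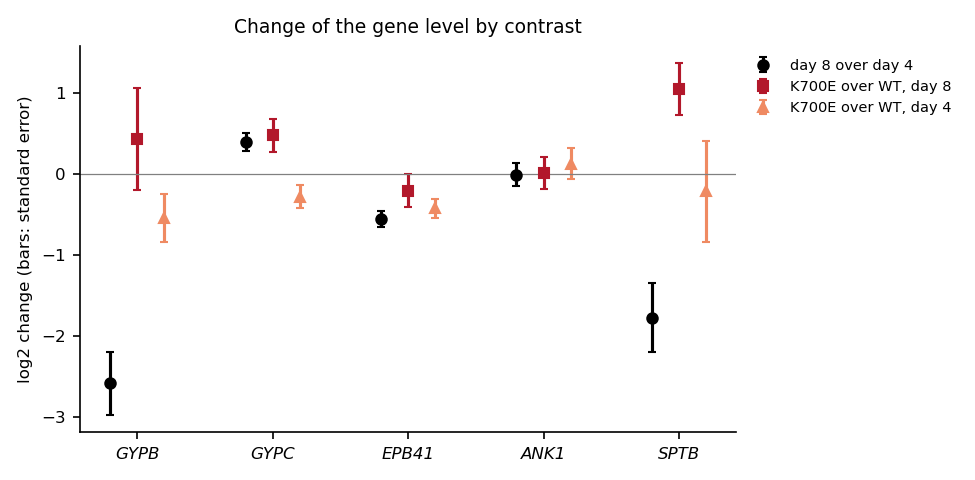
Log2 change of the gene level (y axis, bars are standard errors) of the 5 genes (x axis) at day 8 over day 4 and for K700E over WT at day 8 and at day 4. GYPB at -2.58 and SPTB at -1.77 lie lowest for day 8 over day 4, and ANK1 lies near 0 in all 3.

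Between genotypes 0 of the 5 genes were called by edgeR at either day. Of all genes tested, 0.529% were called at day 4 and 0% at day 8. At an unadjusted p under 0.05, EPB41 passed at day 4, 1 of the 5 against 21.3% of all genes, and SPTB at day 8, against 2.92%. DESeq2's Wald test, which called 1640 genes at day 4 against 74 by edgeR, called EPB41 there and none of the 5 at day 8. Over all genes at day 8, 408 passed at an unadjusted p under 0.05 and DESeq2 called 20. With both days averaged, 0 of the 5 were called and 0% of all genes, and at an unadjusted p under 0.05 EPB41 passed, with a log2 change of -0.30 (SE 0.10, adjusted p = 0.535). Over all genes 1383 passed unadjusted there and DESeq2 called 107. For the interaction of genotype and day 0 of the 5 were called and 0% of all genes, and GYPC passed at an unadjusted p under 0.05. Over all genes 1371 passed unadjusted and DESeq2 called 193. Within the K700E libraries alone, GYPB and GYPC were called between the days, 2 of the 5, against 18.9% of all genes, and within the WT libraries GYPB, EPB41 and SPTB, 3 of the 5, against 20.3% of all genes.

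In splicing, 0 of the 27 cassette exons of the 5 genes tested at day 4, 0 of 23 at day 8 and 0 of 31 between the days were called, which took an adjusted p under 0.05 with at least 5 points between the groups, and 0% of all exons were called in each. At an unadjusted p under 0.05, 1, 0 and 7 of them passed, against 12.8%, 5.25% and 18.9% of all cassette exons tested. Of junctions that share a donor, 0 of 72 were called at day 4, 0 of 62 at day 8 and 0 of 85 between the days, against 0.468%, 0% and 0.0685% of all such junctions. Of junctions that share an acceptor, 0 of 69, 0 of 53 and 0 of 83 were called, against 0.0309%, 0% and 0.252%. At an unadjusted p under 0.05, 3, 2 and 11 of the first kind passed, against 7.02%, 2.79% and 10.5% of all such junctions, and 4, 1 and 13 of the second, against 5.65%, 2.78% and, between the days, 10418 of 87161. The members called by an alternative were few. limma's diffSplice called the EPB41 junctions from the nearest and the farthest first exon into the first acceptor of exon 2 between the days (adjusted p = 0.0425 and 0.0466), and edgeR called the one from the farthest without the first WT day 8 library (adjusted p = 0.0362) or without the second (adjusted p = 0.0193). Without the second WT day 8 library it also called the 135 nt exon of ANK1, at -7.29 points (adjusted p = 0.0330). Over all cassette exons 2487 passed unadjusted at day 4, 979 at day 8 and 4873 between the days.

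Acceptors of the kind that SF3B1 mutants are known to use were looked for in the 5 genes. Of 9 acceptors 10 to 30 nt before an annotated one, 8 were not annotated, and the most read of these had 18 reads in all 8 libraries together, a share of 0.555%. It lies in ANK1, 23 nt before an annotated acceptor. Its reads were 0 and 1 in K700E day 8, 0 and 12 in WT day 8, 4 and 1 in K700E day 4 and 0 and 0 in WT day 4. All 18 were thus in the K700E day 4 libraries and the second day 8 library of each label. Those libraries had median shares of 49.7% to 54.8% at the 9 known SF3B1 targets. The next most read acceptor, in GYPB, had its 7 reads in the second WT day 4 library. A link with the use of the target acceptors was not tested.

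Levels of different genes were compared per intron of the reference transcript. At day 8 the order was GYPC, EPB41, ANK1, GYPB and SPTB, at 34.8 ± 7.07, 14.99 ± 0.960, 7.25 ± 0.403, 1.69 ± 0.949 and 0.826 ± 0.413 CPM per intron (SD, n = 4 each). At day 4 it was GYPC, EPB41, GYPB, ANK1 and SPTB, at 26.65 ± 3.77, 22.6 ± 3.905, 10.45 ± 3.72, 7.29 ± 1.16 and 2.64 ± 1.27 CPM per intron (SD, n = 4 each). The order of EPB41 and GYPC at day 4 depends on the introns averaged. EPB41's introns 1 to 3 had at most 0.510 CPM in any library, and its median intron had more reads than that of GYPC in 3 of the 4 day 4 libraries (1246 against 1108, 1612 against 1382 and 1794 against 1630). GYPB and SPTB overlapped at day 8, and at day 4 GYPC overlapped EPB41 and GYPB overlapped ANK1.

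The other genes of the membrane were read from lists. The ankyrin and band 3 complex moved mostly down at day 8. Of its 9 genes, 0 were called higher and 6 lower over day 4, with a median log2 change of -1.61, against a median of -0.00 over all genes tested. The shares of all genes tested were 18.1% called higher and 18.0% lower. RHAG, the Rh-associated glycoprotein, had -1.01 (SE 0.225, adjusted p = 0.0121 by edgeR), and the Rh proteins RHD and RHCE had -3.37 and -2.57. EPB42, protein 4.2, had -5.81 at adjusted p = 0.0255, but it was listed at 0 in both WT day 8 libraries and reached 3.08 CPM in the first K700E day 4 library, with at most 0.243 CPM in the other 5. SLC4A1, band 3 itself, was at most 6.02 CPM in any library and was not called.

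The actin junction list was mixed, with 2 genes called higher and 4 lower of 13 and a median of -0.08. For this list and the next, the shares of all genes tested were 18.1% called higher and 18.0% lower. TMOD1, the tropomodulin that caps actin, had -1.55 (SE 0.16, adjusted p = 0.00102), the adducins ADD2 and ADD3 had -1.61 and -0.86, and MPP1, the partner of protein 4.1R and glycophorin C, had -0.93. ACTB had 1.01 and DMTN, dematin, 1.06. Of the other red cell surface proteins, 3 were called higher and 2 lower of 11 tested, with a median of 0.49. ERMAP, which carries the Scianna antigens, had -2.77 (SE 0.36, adjusted p = 0.00183) and GYPE -1.86, while BCAM had 1.56, PIEZO1, the mechanosensitive channel, 0.93 and CD59 0.49.

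Of 13 paralogues of the skeleton genes, 2 were called higher and 1 lower, with a median of -0.32. Between the days, 18.1% of all genes tested were called higher and 18.0% lower. EPB41L1 had 1.93 (SE 0.20, adjusted p = 0.00102), SPTAN1, a spectrin of other tissues, 1.19 (SE 0.23, adjusted p = 0.00725) and EPB41L5 -0.82. Of the 6 regulators known to act on EPB41 exon 16, 1 was called: HNRNPA1, a repressor of that exon, had -0.90 (SE 0.17, adjusted p = 0.00595) at day 8. HNRNPA1 had 1640 and 1025 CPM in K700E day 8, 1370 and 1182 CPM in WT day 8, 1948 and 1814 CPM in K700E day 4 and 3233 and 3105 CPM in WT day 4. K700E over WT at day 4 was -0.74 for HNRNPA1 (SE 0.10, adjusted p = 0.0607), which was not called. A link between the level of HNRNPA1 and the inclusion of exon 16 was not tested. Between genotypes at day 4 edgeR called 0 genes of these 5 lists. At an unadjusted p under 0.05, 3 genes of the ankyrin and band 3 complex, 6 of the actin junction and 4 of the other surface proteins were lower in K700E and 0 higher. Of the paralogues 2 were higher and 0 lower, and of the exon 16 regulators 2 were higher and 1 lower. Of all genes 10.5% were lower and 10.8% higher.

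**Figure D5:**
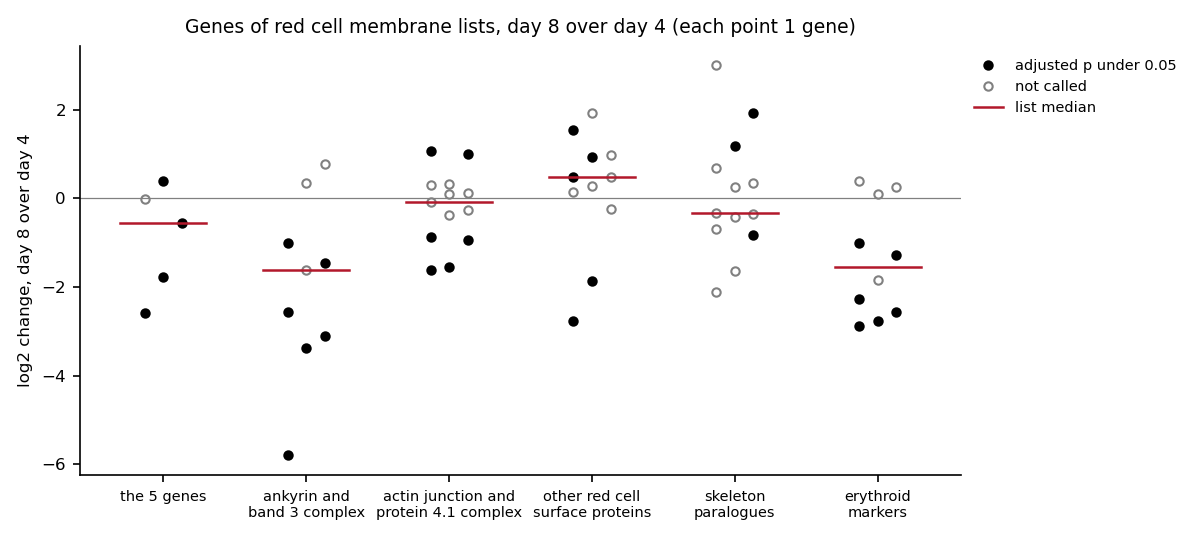
Log2 change at day 8 over day 4 (y axis) for each gene of the 5 described here, of 4 other membrane lists and of the erythroid markers (x axis); filled points passed an adjusted p under 0.05 and red lines are list medians. The ankyrin and band 3 complex, at a median of -1.61, and the erythroid markers, at -1.56, lie lowest.

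Erythroid markers moved with the days as well. Of the 10, 0 were called higher and 6 lower at day 8, with a median of -1.56. The shares of all genes tested were 18.1% called higher and 18.0% lower. Their summed level was 1109 to 1792 CPM at day 8 and 1027 to 2412 CPM at day 4, and TFRC, the transferrin receptor, was its largest term at 606 to 1458 CPM. HBZ, HBG1 and HBA2 had -2.89, -2.76 and -2.57, while GATA1 had 0.25 (adjusted p = 0.292) and KLF1 0.39 (adjusted p = 0.377). HBG2 was listed at 0 in 1 library of each day. Of the 7 epithelial markers, KRT8 and KRT18 were called higher and EPCAM lower, and the sum was 1019 to 2608 CPM at day 8 and 488 to 987 CPM at day 4. Of the 7 megakaryocyte markers 4 were tested and 0 called between the days, and their sum was 39.4 and 516 CPM in K700E day 8, 96.2 and 74.2 CPM in WT day 8, 126.5 and 125 CPM in K700E day 4 and 12.6 and 24.2 CPM in WT day 4. At day 4, 1 of them was called higher in K700E, against 0.229% of all genes tested. The myeloid markers summed to 54.3 to 174 CPM and the lymphoid markers to 0.736 to 7.75 CPM in any library. Their part in the changes of the 5 genes was not tested. In bulk RNA, fewer cells of a type and less RNA per cell cannot be told apart.

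By rule, the 3 genes most like each of the 5 were found over the 8 libraries among 11603 genes with a mean of at least 1 CPM, as Pearson's r of log2 CPM. For EPB41 these were CPOX, an enzyme of haem synthesis (r = 0.99), TTC28-AS1 (0.99) and TAF8 (0.99). For GYPB they were AP3S1, STK38L and NT5C3A, each at 0.99. For GYPC they were REPIN1, NDUFB11 and QRICH2, each at 0.97. For ANK1 they were TRPA1 at 0.95, INPP4A at 0.91 and ACRBP at 0.89, and for SPTB AC016629.2 and DLGAP1-AS2 at 0.98 and DNHD1 at 0.97. These r values are the highest of many over 8 points that share the same libraries and the same step between days, and are given as a description.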

How the data were processed

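Strand-specific total RNA libraries of K562 cells, 8 in all and 2 per group, were analysed from the splice junction tables the authors deposited. The values are counts of reads per junction, deposited as uniquely mapped and multi-mapped reads. Per the file headers, reads were aligned with STAR 2.7.0e end to end with GENCODE 22 added at mapping, and per the submitters' processing notes trimmed with cutadapt and aligned to hg38. Each library held 49338071 to 77750812 unique reads, and intervals and floors cover counting error only.

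Junctions were assigned to genes by GENCODE 29 introns and sites, and 94.5% of unique reads fell on introns of 1 gene, which were summed. Gene sums were fitted with edgeR 4.0.16 (R 4.3.3; TMM factors, filterByExpr, quasi-likelihood test), each day alone for K700E over WT, and over 8 libraries otherwise. Cassette exons were tested as inclusion against skipping reads, and junctions sharing a donor or acceptor with diffSpliceDGE, at a mean of at least 20 reads a library. Calls of exons and junctions took an adjusted p under 0.05 with at least 5 points between groups. DESeq2 1.42.0, limma 3.58.1 and other filters were alternatives.

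On counts simulated for the day 4 comparison with 13769 genes tested, 45.0% of genes changed 2-fold and 100.0% of those changed 4-fold were recovered. Among 17945 simulated exons 91.5% of the changed ones were recovered, and among 63196 simulated junctions at a donor 56.0% of those changed 3-fold and 85.0% of those changed 8-fold. The genes were simulated with less spread than the day 4 fit, whose coefficient of variation between libraries was 0.277, against 0.516 at day 8. Noise of exons and junctions was set by hand, and the changed features were well read. These shares are therefore no measure of power in the real libraries.

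The members and lists were chosen with earlier results of these data known. Named genes of a list are those called, beside SLC4A1, GATA1, KLF1, TFRC and HBG2, which were named after their values were seen, and named exons those included in 5% to 95% of pooled day 4 reads with at least 20 reads in each day 4 library, beside those said to be chosen after their values were seen. Some genes of the lists are counted but not reported here by name.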

Additional observations from a re-analysis of the deposited data

Results flagged for a closer look

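K700E and WT stood in opposite order at the 2 days, in every library, for 5 of 29 values compared. How many of all genes, exons and junctions stand in such an order was not counted, so this count has no background beside it. For GYPC the change of K700E over WT was 0.51 on the log2 CPM scale at day 8 and -0.29 at day 4, a difference of 0.81. The interaction of genotype and day in edgeR's fit gave an adjusted p of 0.472.

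For EPB41 exon 16 inclusion, K700E minus WT was -4.92 points at day 8 and 3.98 points at day 4, a difference of -8.89 points. For the farthest EPB41 first exon it was 4.20 points at day 8 and -3.15 points at day 4, a difference of 7.35 points. For the nearest first exon it was -3.91 points at day 8 and 3.40 points at day 4, a difference of -7.32 points. For the farther acceptor of exon 2 it was 2.81 points at day 8 and -1.54 points at day 4, a difference of 4.35 points. These 4 differences were not tested, and the last 3 share reads. At day 8, 1 library of each label went against it at the known SF3B1 targets. The part of the labels in these values was not tested.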

How the results depend on the processing

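GYPB was called lower at day 8 than at day 4 under each alternative run. For day 8 over day 4, the GYPC change was 0.38 (adjusted p = 0.0665) with no filter on low counts, 0.32 to 0.45 with single libraries left out, and -0.0063 within the WT libraries. SPTB was -1.12 within K700E, -1.14 within K700E with the WT day 8 libraries left out of the fit, and -2.13 to -1.07 with single libraries left out. EPB41 was -0.42 within K700E and -0.43 with the WT day 8 libraries left out. ANK1 was 0.025 within WT and -0.13 to 0.12 with single libraries left out.

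K700E over WT at day 4 with single libraries left out ran over -0.16 to 0.35 for ANK1 and -1.64 to 0.48 for SPTB, and EPB41 was called by DESeq2 at -0.42. At day 8 it ran over -0.44 to 0.99 for GYPB and -0.061 to 0.10 for ANK1. For both days it ran over -0.48 to 0.23 for GYPB, -0.060 to 0.20 for ANK1 and -0.28 to 0.78 for SPTB, and GYPB was 0.011 with reference introns only. The interaction for ANK1 ran over -0.29 to 0.20. The causes were not tested.

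Genes called at day 4 were 74, against 1640 by DESeq2, 1567 with no filter, 0 with 8 libraries in 1 model, 126 with the replicate block, and 0 (either WT library left out) to 2536 (first K700E library left out). DESeq2 called 20 at day 8, 107 for both days and 193 for the interaction, and no filter gave 41 and 102 for the last 2. Between the days 5369 genes were called, 2823 within K700E, 3029 within WT, and 2897 to 5980 with single libraries left out.

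Exons called were 0, against 1 at day 4 from the upstream junction alone and 0 to 124 with single libraries left out, 0 to 1598 at day 8 and 0 to 2085 between the days, where 1 was a member's exon. Donor junctions called at day 4 were 327, and 8 to 110 with libraries left out. Between the days they were 65, against 672 by limma's diffSplice, 22 with the replicate block and 0 to 2047 with libraries left out. Acceptor junctions called at day 4 were 20, against 81 by limma, 8 with the block and 0 to 58 with libraries left out. Between the days they were 220, against 1732, 46, and 4 to 3011, of which 2 by limma and 0 to 1 with libraries left out were of the 5 genes. The member exon was the 135 nt exon of ANK1 (without the second WT day 8 library), and the junctions were those of EPB41 into the first acceptor of exon 2.

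The labels do not say that a replicate number marks a shared batch. Deviations of libraries with the same number correlated at 0.14 at day 4 and 0.27 at day 8, with 2 pairs a day. At day 8 both replicate 1 libraries were low and both replicate 2 libraries high at the SF3B1 targets. The replicate block changed no call of the 5 genes.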
